A study of Mus musculus with 18 samples.

Results

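The 10 genes described here encode TGF-β ligands (*Tgfb1*, *Tgfb2* and *Tgfb3*) and proteins of the latent TGF-β binding protein family (*Ltbp1* and *Ltbp2*). The others encode TGF-β receptors (*Tgfbr1*, *Tgfbr2* and *Tgfbr3*) and the receptor-activated SMADs (*Smad2* and *Smad3*). They were chosen by gene symbol, without regard to their values, and are 10 of the 55491 rows of the deposited count table. All 10 passed the filter on low counts. RNA was sequenced from mouse tail tendon fibroblasts (TFs), the collagen-making cells of tendon, after 4 days in 20% O2 (normoxia) or 1% O2 (hypoxia). There were 3 replicates in each of 6 groups, 18 libraries in all, and replicates are called by the number their labels give. The comparisons address how O2 level and *Hif1a*, which encodes the oxygen-regulated subunit of the transcription factor HIF-1, bear on these genes.

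Ctrl TFs are labelled wild-type and, per the methods, came from Cre-negative mice. TFs labelled cKO came from *Hif1a* fl/fl mice with ScxCre, a Cre driven by the gene of the tendon transcription factor *Scx*, so the allele is deleted where *Scx* is or was active and other cells keep it. Gesicle-treated TFs are Ctrl TFs exposed to Cre gesicles, vesicles that carry Cre protein into cells in culture. What these cells can lose to Cre depends on a floxed allele. The label wild-type gives none, whereas the methods describe Cre-negative controls as *Hif1a* fl/fl. All groups shared a C57BL6J/129S1 mixed background, male and female donors of 4 to 6 months, crawl-out from collagen gels, passage and culture on plastic. The labels give 10% serum and the methods 1%. Nothing in the labels says whether libraries with the same number at 20% and 1% O2 came from 1 mouse. By *Xist* and Y-linked counts, the Ctrl and gesicle groups each held 1 male and 2 female libraries and the groups labelled cKO 2 male and 1 female, so sex was not balanced. The p-values below measure the spread between these libraries.

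TGF-β is secreted as a latent complex in which the ligand is held by its propeptide. Latent TGF-β binding proteins such as LTBP1 tie that complex to fibrillin-rich matrix. Once released, the ligand is gathered by the co-receptor TGFBR3 and signals through the kinases TGFBR2 and TGFBR1, which phosphorylate SMAD2 and SMAD3. In tendon, the pathway is known for maintaining tendon progenitors and driving *Scx* and matrix genes.

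Library totals ran from 6857558 to 51806453 counts, with the lowest in the library labelled cKO at 1% O2 replicate 1, where the members still held between 70 (*Tgfb1*) and 1257 (*Tgfbr2*) counts. A floor of 3 counts corresponded to 0.0579 to 0.437 CPM (counts scaled to the library total), for counting error only. *Hif1a* itself was at 294 to 503 CPM in every library and was not lower under Cre. Its mean was 348 ± 19.6 CPM in Ctrl and 377 ± 72.8 CPM in libraries labelled cKO at 20% O2 (SD, n = 3), and 362 ± 31.0 CPM with gesicles, while at 1% O2 the means were 420, 443 and 383 CPM. A deletion of part of the gene need not lower its total count, so this value does not check the label, and "labelled cKO" is written below. The 4 transgene sequences in the table included Cre, which was counted in 3 of 3 libraries labelled cKO at 20% O2 and 2 of 3 at 1% O2, at no more than 5 counts, and in no other library. All 9 tendon fibroblast markers reached 1 CPM, with a summed level of 4660 to 15000 CPM. The lists of markers for other cells were mostly mixed, and 0 of 4 keratinocyte markers reached 1 CPM. That level was reached by 1 of 5 endothelial, 3 of 5 macrophage and 2 of 5 muscle markers. *Ckm* of muscle was at 0 in 18 of 18 libraries, and *Adgre1* of macrophages and *Tie1* of endothelium at 0 in 17 each. The highest marker of each of these lists was *Tek* (endothelium) at 11.3 to 76.5 CPM, *Acta1* (muscle) at 9.32 to 41.8 CPM and *Lyz2* (macrophages) at 8.57 to 22.2 CPM. *Sox9* of the cartilage list was at 20.6 to 50.8 CPM. On the same list *Acan*, *Col9a1* and *Matn1* were each at 0 in 17 libraries, and *Col2a1* reached at most 3.68 CPM. All 5 mural markers were present, with a summed level of 32.3 to 175 CPM. In bulk RNA, fewer cells of a type and less RNA per cell cannot be told apart.

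*Ltbp2* and *Smad3* are the members called below, and *Tgfb2* is the ligand with the lowest p between genotypes. The 250 bases before their starts are shown because HIF-1 binds DNA at a short core. Sequences are from RefSeq on GRCm38.p6, 5′ to 3′ on the gene's own strand, which is minus for all 3. They lie at chr12:84876492-84876741 (*Ltbp2*), chr9:63757995-63758244 (*Smad3*) and chr1:186705990-186706239 (*Tgfb2*). Capitals mark ACGTG or GCGTG, the hypoxia response element core, on either strand.
Ltbp2: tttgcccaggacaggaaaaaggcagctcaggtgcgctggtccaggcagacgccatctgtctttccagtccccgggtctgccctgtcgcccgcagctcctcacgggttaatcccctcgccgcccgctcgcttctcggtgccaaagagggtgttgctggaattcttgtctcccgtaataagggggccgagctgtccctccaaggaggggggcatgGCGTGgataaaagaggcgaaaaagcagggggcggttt
Smad3: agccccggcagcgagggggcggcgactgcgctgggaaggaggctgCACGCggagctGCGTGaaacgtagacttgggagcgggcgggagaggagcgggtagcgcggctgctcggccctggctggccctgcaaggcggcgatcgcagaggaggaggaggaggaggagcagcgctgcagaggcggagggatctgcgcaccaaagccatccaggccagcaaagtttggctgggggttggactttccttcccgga
Tgfb2: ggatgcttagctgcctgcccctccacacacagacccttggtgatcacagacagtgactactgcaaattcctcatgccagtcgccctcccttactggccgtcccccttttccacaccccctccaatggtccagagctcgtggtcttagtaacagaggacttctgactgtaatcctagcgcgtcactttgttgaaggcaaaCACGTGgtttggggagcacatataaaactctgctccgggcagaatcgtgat
*Ltbp2* had 1 match, beginning 37 bases before the start. The start that GENCODE gives for *Ltbp2* lies 41 bases further upstream, so by that annotation the match is inside its first exon. *Smad3* had 2 matches, at 205 bases before the start on the minus strand of the gene and at 194. The 2 matches of *Tgfb2* overlap in 1 palindrome. In windows of 250 bases before and 50 after the start, which were given for 7 of the 10 members (9 windows), *Tgfb1* and *Tgfbr2* had 1 match each, and *Tgfbr1* and *Ltbp1* had 2 and 1 in their first window and 0 in their other one. Of 32851 windows of the same length over all genes, 43.8% held a match, so the motif is common. The short SMAD-binding motif CAGAC, searched on both strands, was in 49.6% of all windows. It had 3 matches in *Ltbp2*, 2 in *Tgfb2*, 1 in *Tgfbr2* and 0 in *Smad3* and *Tgfb1*. *Ltbp1* had 1 in its first window and 2 in its other one, and *Tgfbr1* 0 and 1. The longer palindrome GTCTAGAC was in 0.2% of all windows and in no member's. A match is not evidence of binding.

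By position on GRCm38 in GENCODE M21, the ligands are *Tgfb1* (ENSMUSG00000002603, chr7:25687002-25705077), *Tgfb2* (ENSMUSG00000039239, chr1:186622792-186705989) and *Tgfb3* (ENSMUSG00000021253, chr12:86056745-86079041). The LTBP genes are *Ltbp1* (ENSMUSG00000001870, chr17:75005568-75392512) and *Ltbp2* (ENSMUSG00000002020, chr12:84783212-84876532), which lies on the same chromosome as *Tgfb3*. The receptors are *Tgfbr1* (ENSMUSG00000007613, chr4:47353222-47414931), *Tgfbr2* (ENSMUSG00000032440, chr9:116084293-116175360) and *Tgfbr3* (ENSMUSG00000029287, chr5:107106570-107289629). *Smad3* (ENSMUSG00000032402) spans chr9:63646767-63757994 and *Smad2* (ENSMUSG00000024563) chr18:76241580-76310963. Values are counts over all exons of each gene, whose union ran from 3383 bases (*Tgfb3*) to 10691 bases (*Ltbp1*). Besides *Ltbp2*, exons of *Tgfb2*, *Tgfb3* and *Tgfbr3* overlap small genes that had at most 10 counts in any library.

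Among the ligands, *Tgfb3* was by far the most abundant. To compare genes with one another, CPM were divided by the exon length of each gene in kilobases. On this scale the mean level of *Tgfb3* over the 18 libraries was 79.5 CPM per kb (range 48.6 to 111), against 3.35 for *Tgfb2* (2.40 to 4.75) and 2.22 for *Tgfb1* (1.34 to 3.06). *Tgfb3* made up 90.9% to 95.0% of the length-scaled level of the 3 ligands in each of the 18 libraries, and the group means of this share stayed between 92.7% and 93.6%.

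Below *Tgfb3*, the members fell into an upper pair, a middle set and a low set. *Ltbp2* averaged 39.7 CPM per kb and *Tgfbr2* 35.5, followed by *Tgfbr3* at 15.3, *Smad3* at 10.9, *Smad2* at 10.7, *Ltbp1* at 10.2 and *Tgfbr1* at 5.26. Over all 18 libraries the range of each gene overlapped that of the next in this order. Within groups the overlap was less complete. *Tgfb3* was first in each of the 6 groups, and its libraries all stood above those of the second gene except in Ctrl at 20% O2, next to *Ltbp2*, and in the group labelled cKO at 20% O2, next to *Tgfbr2*. *Tgfb1* was last in each of the 6, and its range was below that of *Tgfb2* in 4 of them. The exceptions were the group labelled cKO and the gesicle group, both at 20% O2.

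**Figure D1:**
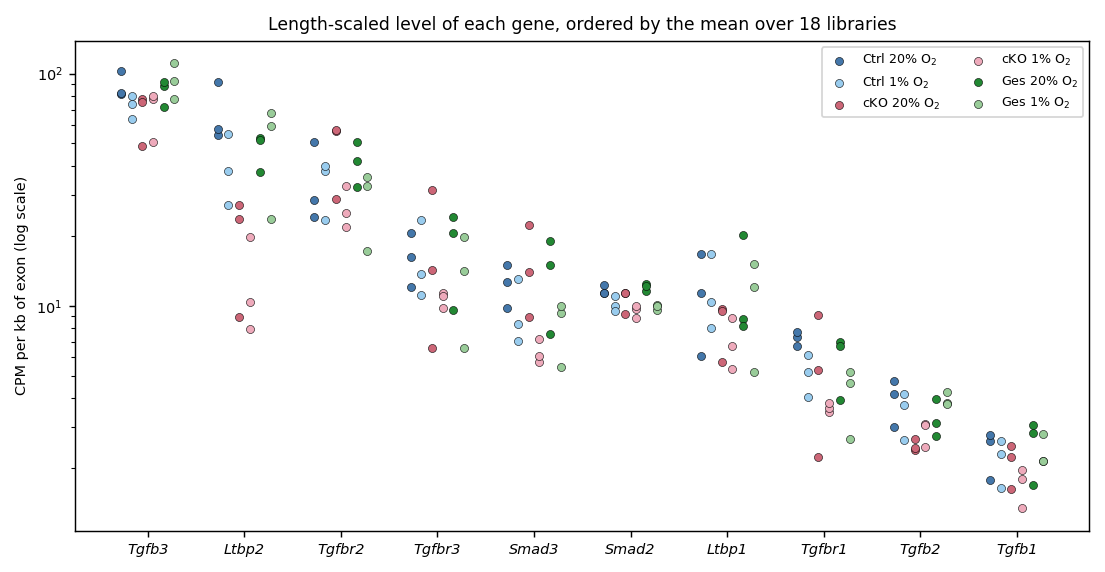
Level of each of the 10 genes in CPM per kb of exon (log axis), one point per library, coloured by group and ordered from left to right by the mean over 18 libraries. *Tgfb3* (48.6 to 111 CPM per kb) and *Tgfb1* (1.34 to 3.06) mark the ends of the order, and the red points of *Ltbp2*, from libraries labelled cKO, lie at the bottom of its range of 7.92 to 92.2.

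The order of *Ltbp2* and *Tgfbr2* was not the same in all arms. In Ctrl at 20% O2, *Ltbp2* was second at 68.1 CPM per kb and *Tgfbr2* followed at 34.5, without overlap. *Ltbp2* was also second in Ctrl at 1% O2 (40.0) and in the gesicle groups (47.4 at 20% and 50.3 at 1% O2), where its range overlapped that of *Tgfbr2*. In libraries labelled cKO the order was the other way around, with *Tgfbr2* at 47.6 and *Ltbp2* at 19.9 CPM per kb at 20% O2, and 26.5 against 12.7 at 1% O2. Neither pair of ranges overlapped.

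Members also differed in how much they varied between libraries. *Smad2*, which carries the signal from the receptors to the nucleus, was the steadiest, with a coefficient of variation of 10.5% and a highest level 1.39 times the lowest. *Tgfb3* (19.7%), *Tgfb2* (22.0%) and *Tgfb1* (22.9%) came next. *Tgfbr2* (34.0%), *Tgfbr1* (35.7%), *Ltbp1* (42.5%), *Smad3* (43.3%) and *Tgfbr3* (43.7%) spread further, and *Ltbp2* furthest, with 58.1% and an 11.6-fold range. On the CPM scale, which is used from here on, the mean over 18 libraries placed *Tgfb1* (11.2 CPM) at percentile 45.3 of the genes tested, *Tgfb2* (19.4 CPM) at percentile 54.4, and *Ltbp2* (325 CPM), *Tgfbr2* (290 CPM) and *Tgfb3* (269 CPM) at percentile 96 or above.

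**Figure D2:**
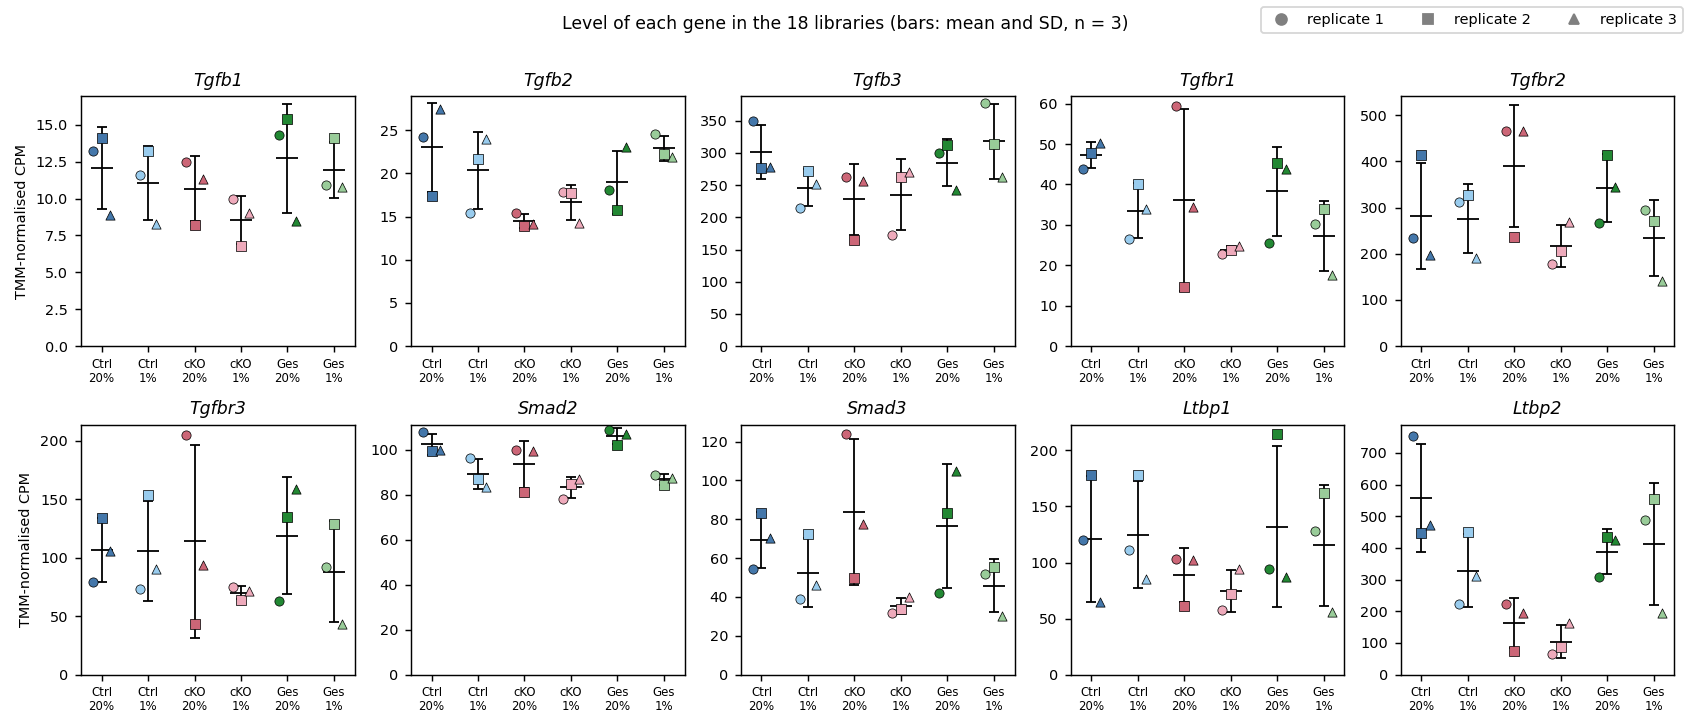
TMM-normalised CPM of each gene in the 18 libraries, by group on the horizontal axis (Ges, gesicle-treated) with a symbol for each replicate number and bars for the mean and SD (n = 3). *Ltbp2* at 64.8 to 222 CPM in libraries labelled cKO and the narrow spread of *Smad2* (a 1.39-fold range) stand out.

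Libraries labelled cKO were compared with Ctrl at each O2 level and averaged over both. *Ltbp2*, which encodes a matrix protein of the fibrillin and LTBP family that binds little or no TGF-β itself, was the member that differed most. At 20% O2 its level was 754, 446 and 471 CPM in Ctrl replicates 1 to 3 (557 ± 171 CPM, SD, n = 3) and 222, 73.5 and 193 CPM in those labelled cKO (163 ± 78.6 CPM). At 1% O2 it was 222, 450 and 311 CPM in Ctrl (327 ± 115 CPM) and 64.8, 85.5 and 162 CPM in those labelled cKO (104 ± 51.1 CPM). All 3 libraries labelled cKO were below all 3 Ctrl libraries at each O2 level, though the highest at 20% O2 reached the level of the lowest Ctrl library at 1% O2.

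Averaged over both O2 levels, *Ltbp2* was 3.29-fold lower in libraries labelled cKO, 133 against 442 CPM, and passed the test (log2 fold change −1.72, SE 0.31, adjusted p = 0.0142 by edgeR's quasi-likelihood test). It was the 1 member of 10 called, which took an adjusted p under 0.05 and at least a 1.5-fold difference, while 3.78% of all 15850 genes tested were called in this comparison. With the libraries of the same arm and replicate number summed, so that 3 were compared with 3, its log2 fold change was −1.58 and it was no longer called (adjusted p = 0.111).

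At single O2 levels *Ltbp2* differed by as much but did not pass. Its log2 fold change was −1.78 at 20% O2 (SE 0.43, unadjusted p = 0.00138, adjusted p = 0.112) and −1.65 at 1% O2 (SE 0.43, unadjusted p = 0.00237, adjusted p = 0.202). DESeq2 called it at both (adjusted p = 0.00215 and 0.0125). edgeR called 0 of 10 members at either level, where it called 0.347% of all genes at 20% and 0.0379% at 1% O2. At an unadjusted p under 0.05 there were 2 members at 20% O2, against 14.3% of all genes, and 1 at 1% O2, against 16.8%. DESeq2 called 1 member at each level, while it called 417 of all 15850 genes at 20% and 263 at 1% O2. limma voom called 3 members at 20% and 1 at 1% O2, while it called 1585 and 1274 of all genes.

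Sex was unbalanced, and each sex had only 1 library on one side at each O2 level, so the values of *Ltbp2* by sex are given without a test. At 20% O2 the male libraries were at 754 CPM in Ctrl and at 73.5 and 193 CPM in those labelled cKO, and the female ones at 446 and 471 against 222 CPM. At 1% O2 the male libraries were at 222 against 85.5 and 162 CPM, and the female ones at 450 and 311 against 64.8 CPM. With *Xist* as a covariate the averaged log2 fold change was −1.72 (adjusted p = 0.0263).

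Markers of mural cells, the contractile cells around vessels, were lower in the same libraries. Their summed level was 100 to 175 CPM in Ctrl and 38.0 to 56.3 CPM in libraries labelled cKO at 20% O2, without overlap, and 48.8 to 97.9 against 32.3 to 51.3 CPM at 1% O2. Averaged over O2 levels, 3 of the 5 fell, namely *Cspg4* (42 to 13.5 CPM), *Myh11* (36.7 to 13.4 CPM) and *Rgs5* (13.2 to 7.90 CPM). *Acta1*, on the muscle list, fell as well, from 28.7 to 15.5 CPM averaged (adjusted p = 0.0154) and from 30.6 to 12.6 CPM at 20% O2 (adjusted p = 0.0449), where no mural marker was called. The summed tendon fibroblast markers were 11000 to 13100 CPM in Ctrl and 4660 to 9540 CPM in libraries labelled cKO at 20% O2. At 1% O2 they were 5960 to 13600 against 5390 to 9020 CPM. Of the 9, however, 0 were called, and 5 had a positive log2 fold change at each level. Their median was 0.07 at 20%, 0 at 1% O2 and −0.15 averaged. The part of these markers in the level of *Ltbp2* was not tested. An antisense gene, *D030025P21Rik*, shares 764 exon bases with *Ltbp2* and reached at most 4.24 CPM, and the sources used here do not say whether counting used strand.

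*Ltbp1*, which does bind the latent complex covalently, showed a smaller difference that did not pass. Its level at 20% O2 was 120, 178 and 65.1 CPM in Ctrl and 103, 61.5 and 102 CPM in libraries labelled cKO, and at 1% O2 111, 178 and 85.7 against 57.3, 71.7 and 94.5 CPM. The groups overlapped at both levels. The averaged log2 fold change was −0.60 (SE 0.25, adjusted p = 0.146), with −0.46 at 20% and −0.74 at 1% O2 (adjusted p = 0.543 and 0.313). When offsets corrected for gene length and GC content, these values shrank to −0.23, −0.15 and −0.31, and without Ctrl replicate 2 at 20% O2 the value at that level was −0.069. The length-scaled ratio of *Ltbp2* to *Ltbp1* was 6.97 ± 3.26 in Ctrl and 2.28 ± 0.648 in libraries labelled cKO at 20% O2 (SD, n = 3), and 3.55 ± 1.09 against 1.76 ± 0.418 at 1% O2. Its lowest Ctrl values, 3.27 and 2.61, stood above the highest values labelled cKO, 2.81 and 2.24, at 20% and 1% O2.

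Of the ligands, *Tgfb2* was lower in libraries labelled cKO at 20% O2 by a margin that did not pass adjustment. Its level was 24.2, 17.4 and 27.5 CPM in Ctrl and 15.4, 13.9 and 14.1 CPM in those labelled cKO, so the groups did not overlap and the latter were closely spaced (14.5 ± 0.784 CPM). The log2 fold change was −0.67 (SE 0.20, unadjusted p = 0.00533, adjusted p = 0.189). At 1% O2 the levels were 15.4, 21.7 and 24.0 against 17.9, 17.7 and 14.3 CPM, which overlapped (log2 fold change −0.30, adjusted p = 0.432). Averaged, the value was −0.49 (SE 0.14, adjusted p = 0.0613), a fold change below the 1.5 set for a call under every alternative tried.

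edgeR called none of the other ligands, the receptors or the SMADs between genotypes, while limma voom with quality weights called *Tgfbr2* and *Tgfb2* besides *Ltbp2* at 20% O2. *Tgfb3* was at 349, 277 and 278 CPM in Ctrl and 263, 164 and 256 CPM in libraries labelled cKO at 20% O2, and at 215, 272 and 251 against 172, 262 and 271 CPM at 1% O2. *Tgfb1* was at 8.91 to 14.1 against 8.20 to 12.5 CPM at 20% O2 and 8.29 to 13.2 against 6.76 to 9.95 CPM at 1% O2. The log2 fold changes of the receptors and SMADs ranged from −0.59 (*Tgfbr3*, 1% O2) to 0.46 (*Tgfbr2*, 20% O2). *Tgfbr2* at 20% O2 was at 234, 414 and 198 CPM in Ctrl and 465, 237 and 467 CPM in those labelled cKO, which overlapped. The median log2 fold change of the 10 members was −0.29 at 20% and −0.44 at 1% O2, beside 0.034 and 0.003 for all genes tested. Averaged, it was −0.27 beside 0.024, and 9 of the 10 were negative. These medians come from the fit without GC and length offsets. With the offsets, the averaged values of *Ltbp2*, *Tgfb2* and *Ltbp1* shrank from −1.72, −0.49 and −0.60 to −1.38, −0.35 and −0.23.

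**Figure D3:**
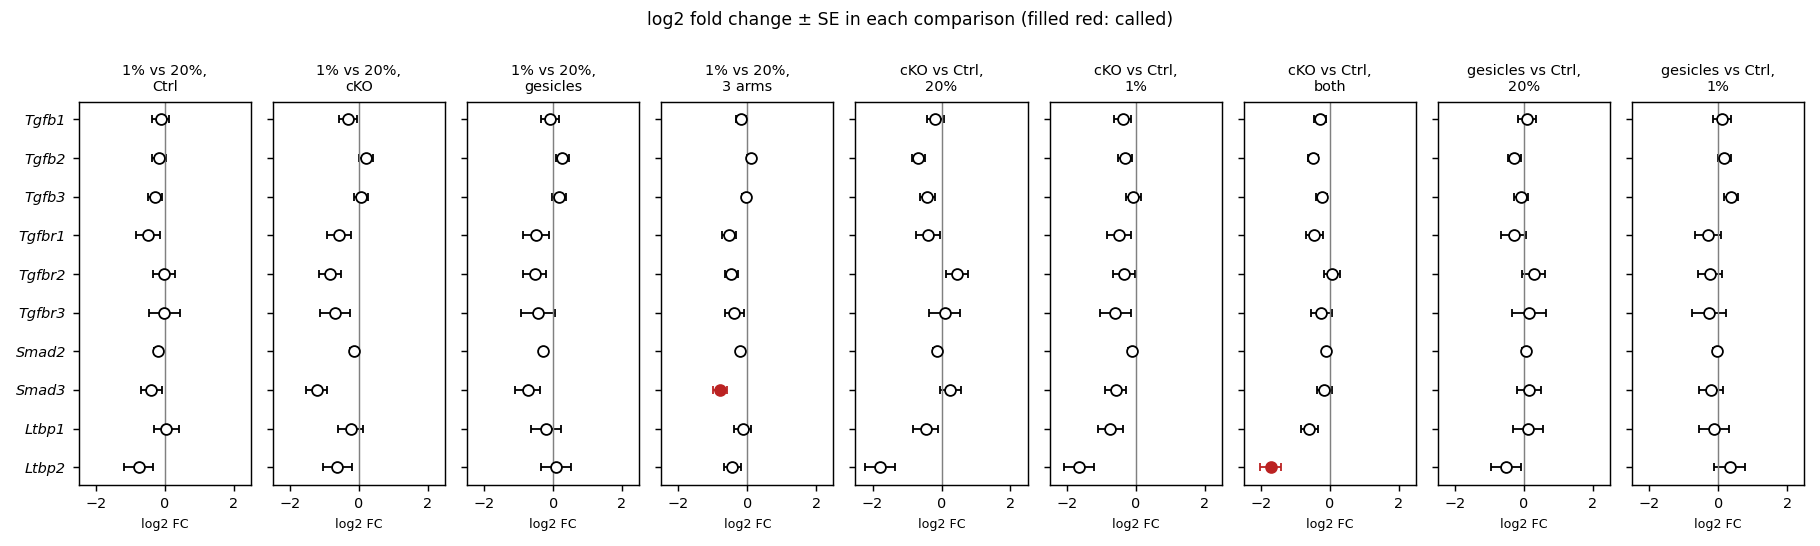
log2 fold change with its SE for each of the 10 genes in 9 comparisons, with members called filled in red. *Smad3* (−0.79, 1% against 20% O2 over 3 arms) and *Ltbp2* (−1.72, libraries labelled cKO against Ctrl over both O2 levels) are filled, and the other points are open.

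Hypoxia was compared with normoxia within each arm and averaged over the 3 arms. *Smad3*, the DNA-binding SMAD of the pair, was the member that fell. In replicates 1 to 3 it was at 54.4, 83.2 and 70.1 CPM at 20% O2 and 38.9, 72.4 and 46.3 CPM at 1% O2 in Ctrl. It was at 124, 49.6 and 77.4 against 31.8, 33.8 and 39.9 CPM in libraries labelled cKO, and at 41.8, 83.0 and 105 against 51.7, 55.5 and 30.3 CPM with gesicles. The O2 levels overlapped in Ctrl and gesicle-treated TFs and were apart in those labelled cKO. The level was lower at 1% O2 in 8 of 9 pairs with the same number, all but gesicle replicate 1. These 9 pairs are not independent, since same-numbered Ctrl and gesicle libraries were read as paired.

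Averaged over the arms, *Smad3* fell from 76.5 to 44.5 CPM, a 1.73-fold change (log2 fold change −0.79, SE 0.21, adjusted p = 0.0112). It was the 1 member of 10 called in this comparison, in which 10.5% of all 16174 genes tested were called, so a single call among 10 is the share of the background. Within arms the log2 fold change of *Smad3* was −0.39 in Ctrl (adjusted p = 0.579), −1.23 in libraries labelled cKO (SE 0.31, unadjusted p = 0.00172, adjusted p = 0.0588) and −0.74 with gesicles (adjusted p = 0.298). The difference between the first and second of these, the interaction of genotype and O2, was −0.84 (SE 0.43) and did not pass (unadjusted p = 0.0735, adjusted p = 1).

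Whether *Smad3* was called in libraries labelled cKO depended on the fit. It was called in 7 of 11 alternatives, among them DESeq2 (−1.24, adjusted p = 0.00391) and the replicate number as a block (−1.13, adjusted p = 0.0435), although same-numbered libraries of this arm were not read as paired. It was not called with RLE size factors, another filter, all 18 libraries or the 2 groups alone (adjusted p = 0.0596, 0.0523, 0.0644 and 0.136). Without each library in turn the value lay between −1.49 and −0.85, with a call in 1 of 6 fits and an adjusted p of up to 0.188. The counts behind these values were lowest in replicate 1 labelled cKO at 1% O2, with 224 counts of *Smad3*.

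**Figure D4:**
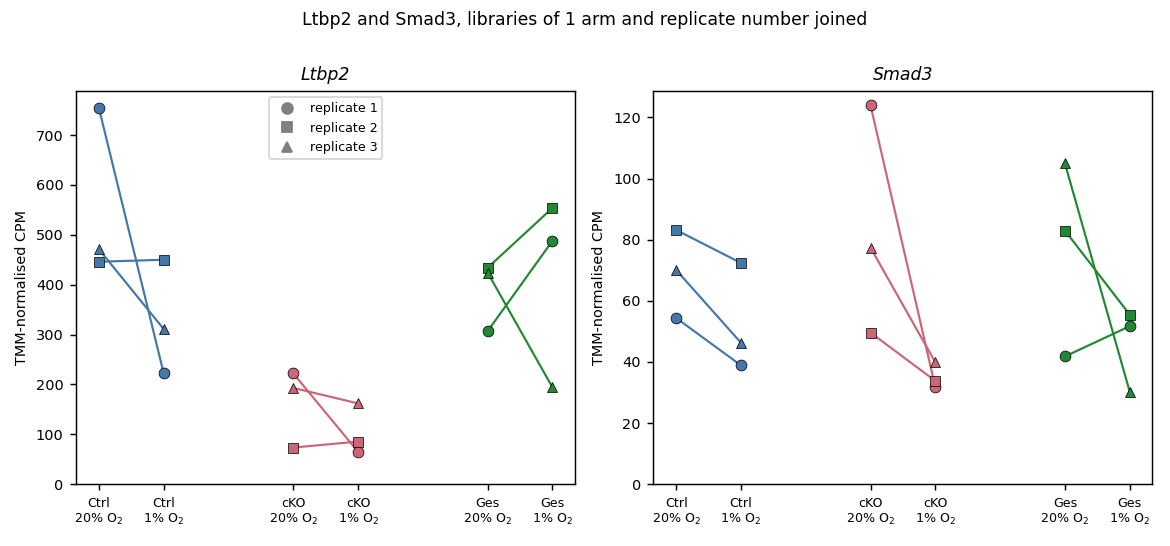
TMM-normalised CPM of *Ltbp2* and *Smad3*, one point per library, with lines joining the 20% and 1% O2 libraries of an arm that share a replicate number (whether these are 1 mouse is not stated). *Smad3* falls along 8 of 9 lines, while *Ltbp2* falls along 5 of 9 and is lowest in the arm labelled cKO.

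*Smad2* moved the same way by a small amount. Its level was 108, 99.3 and 100 CPM at 20% O2 and 96.6, 87.2 and 83.6 CPM at 1% O2 in Ctrl, and 109, 102 and 107 against 88.9, 84.2 and 87.6 CPM with gesicles, with no overlap in either arm. In libraries labelled cKO it was 99.9, 81.3 and 99.4 against 78.2, 84.9 and 87.2 CPM, which overlapped. Averaged over arms it was 86.5 against 101 CPM, with an adjusted p of 0.0107 (log2 fold change −0.22, SE 0.06) but only a 1.16-fold change, so it was not called. When offsets corrected the fit for gene length and GC content, this value shrank to −0.024 (adjusted p = 0.866). In single arms the log2 fold change was −0.19 in Ctrl, −0.15 in libraries labelled cKO and −0.29 with gesicles (adjusted p = 0.437, 0.469 and 0.132).

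The ratio of *Smad3* to *Smad2*, length-scaled, was 1.08 ± 0.267 at 20% and 0.945 ± 0.346 at 1% O2 in Ctrl (SD, n = 3). It was 1.39 ± 0.514 against 0.667 ± 0.0507 in libraries labelled cKO, where the lowest value at 20% O2 (0.967) was above the highest at 1% O2 (0.725), and 1.15 ± 0.491 against 0.837 ± 0.257 with gesicles. The 2 transcripts were thus at similar levels in most groups, with *Smad2* ahead in each of the 3 libraries labelled cKO at 1% O2.

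The receptor kinases had lower means at 1% O2 that did not pass. *Tgfbr1*, the type I kinase, was at 43.8, 47.8 and 50.3 against 26.5, 40.1 and 33.9 CPM in Ctrl, without overlap, and at 59.5, 14.6 and 34.4 against 22.7, 23.8 and 24.9 CPM in libraries labelled cKO. With gesicles it was at 25.6, 45.4 and 43.9 against 30.3, 34.0 and 17.5 CPM. The averaged log2 fold change was −0.53 (SE 0.21, adjusted p = 0.0795), and those of the arms were −0.49, −0.59 and −0.49 (adjusted p = 0.545, 0.379 and 0.525). Replicate 2 labelled cKO at 20% O2, at 14.6 CPM, was the lowest *Tgfbr1* library of the 18, and without it *Tgfbr1* was called in the averaged comparison (−0.66, adjusted p = 0.00652). Without replicate 1 of the same group, the highest, the averaged value was −0.34 (adjusted p = 0.188) and that of the arm labelled cKO −0.038. Of the 18 fits that each left out a library, 2 called it.

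*Tgfbr2*, the ligand-binding kinase, was at 465, 237 and 467 CPM at 20% O2 and 179, 205 and 268 CPM at 1% O2 in libraries labelled cKO, which overlapped (log2 fold change −0.83, SE 0.32, unadjusted p = 0.0246, adjusted p = 0.193). It was at 234, 414 and 198 against 312, 327 and 190 CPM in Ctrl, where the log2 fold change was −0.02 (adjusted p = 0.987) and its sign changed with the processing, and at 267, 414 and 344 against 294, 270 and 141 CPM with gesicles (−0.54, adjusted p = 0.438). Averaged, the value was −0.47 (SE 0.19, adjusted p = 0.0893). *Tgfbr3*, the co-receptor, was at 205, 43.2 and 93.5 CPM in the libraries labelled cKO at 20% O2, which covered nearly all of its 4.77-fold range over the 18. Its O2 comparisons gave no call.

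edgeR called no ligand and neither *Ltbp1* nor *Ltbp2* for O2, while limma voom with quality weights called *Tgfb1* and *Ltbp2* in libraries labelled cKO. *Tgfb1* was lower at 1% O2 in 8 of 9 pairs with the same number. It was at 11.6, 13.2 and 8.29 against 13.2, 14.1 and 8.91 CPM in Ctrl, and at 9.95, 6.76 and 9 against 12.5, 8.20 and 11.3 CPM in libraries labelled cKO, where the 3 pairs were the most alike (ratios of 0.793, 0.825 and 0.798). The groups overlapped in both arms. With gesicles it was at 10.8 to 14.1 against 8.5 to 15.4 CPM. *Tgfb2* was lower in 3 of 9 pairs and *Tgfb3* in 4 of 9, and here the arms went different ways. *Tgfb3* was lower at 1% O2 in 3 of 3 Ctrl pairs, 1 of 3 labelled cKO and 0 of 3 with gesicles, where it was at 300, 312 and 243 against 377, 314 and 262 CPM. *Ltbp1* was lower in 6 and *Ltbp2* in 5 of 9 pairs. *Ltbp2* in Ctrl replicate 1 went from 754 to 222 CPM while replicate 2 stayed at 446 and 450 CPM.

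edgeR called 0 of 10 members in each arm alone. In Ctrl, 1.88% of all genes were called, and at an unadjusted p under 0.05 there were 0 members against 16.1% of genes. In libraries labelled cKO, 2.10% were called, with 2 members against 19.8% at an unadjusted p under 0.05, and with gesicles 2.41%, with 1 member against 17.3%. DESeq2 called 0 members in Ctrl, 1 in libraries labelled cKO and 0 with gesicles, while it called 695, 872 and 722 of all genes. limma voom called 0, 4 and 0 members, while it called 1543, 2718 and 746 of all genes. The genes tested were 15850 in the first 2 arms and 16174 with gesicles. The median log2 fold change of the members was −0.18, −0.45 and −0.24 in these arms and −0.30 averaged, beside 0, −0.03, −0.02 and −0.02 for all genes tested. With GC and length offsets, the averaged values of *Smad3*, *Tgfbr1*, *Tgfbr2* and *Smad2* shrank from −0.79, −0.53, −0.47 and −0.22 to −0.69, −0.41, −0.27 and −0.024. Markers moved with O2 too. Averaged over arms, *Tek* (43.3 to 22.5 CPM) and *Kdr* (0.304 to 0.0161 CPM) of endothelium and *Notch3* (9.79 to 3.60 CPM) of mural cells fell. *Kdr* had at most 25 counts in any library. *Rgs5* (8.37 to 13.8 CPM), *Fmod* (611 to 991 CPM), *Comp* (386 to 590 CPM) and *Fabp4* of adipocytes (2.31 to 3.95 CPM) rose. The part of these markers in the level of *Smad3* was not tested.

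Gesicle treatment of Ctrl TFs left all 10 members without a call. edgeR called 0 of 10 at 20% O2, where it called 0.0247% of all genes, and 0 at 1% O2, where it called 0.00%. At an unadjusted p under 0.05 there were 0 members at either level, against 3.67% and 2% of genes, and DESeq2 and limma voom also called 0. The members' log2 fold changes ran from −0.52 to 0.28 at 20% O2 and from −0.30 to 0.37 at 1% O2. *Ltbp2* was at 307, 434 and 424 CPM with gesicles at 20% O2, below each of the 3 untreated libraries, the lowest of which was at 446 CPM, and at 488, 554 and 194 CPM at 1% O2, where the groups overlapped. At 1% O2 the length-scaled ratio of *Ltbp2* to *Ltbp1* was 4.67 ± 0.273 with gesicles and 3.55 ± 1.09 without. These comparisons share the Ctrl libraries with those of the arm labelled cKO.

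The interaction of genotype and O2 called 0 of 10 members with edgeR, 0.00% of all genes, and DESeq2 and limma voom also called 0 members. At an unadjusted p under 0.05 it held 0 members, against 2.32% of genes. Its values for the members ran from −0.84 (*Smad3*) to 0.37 (*Tgfb2*).

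Other genes of the pathway were taken as 3 lists, chosen by function with earlier results of these data known. Of 21 further pathway genes, such as the inhibitory SMAD, repressors and ubiquitin ligases, 0 rose and 5 fell in libraries labelled cKO averaged over O2 (median log2 fold change −0.24, against 0.024 for all genes). Of all genes tested, 3.78% were called in this comparison, 174 higher and 425 lower, so lower calls were the more common ones in general. *Smad7*, the inhibitory SMAD that the pathway itself induces, fell from 39.2 to 15.9 CPM (log2 fold change −1.29, adjusted p = 0.00362). *Skil*, a SMAD repressor that is also a pathway target, fell from 56.9 to 27.1 CPM (−1.06, adjusted p = 0.0308). *Smad7* was called at 20% O2 as well (50.4 to 20.1 CPM, adjusted p = 0.0408), the 1 gene of this list that was, but in 1 of 6 fits that each left out a library. At 1% O2 0 were called.

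Of 24 tested genes of latency and activation, 2 rose and 2 fell in the same averaged comparison (median −0.15). *Dcn*, whose product decorin binds TGF-β, rose from 167 to 780 CPM (log2 fold change 2.27, adjusted p = 0.00117), and it was called at each O2 level (1.96 at 20% and 2.58 at 1% O2, adjusted p = 0.0233 and 0.0171). The calls at single levels did not hold without some libraries, with adjusted p up to 0.148 at 20% and 0.118 at 1% O2. *Furin*, a convertase that cleaves the TGF-β propeptide, fell from 131 to 76.0 CPM (−0.82, adjusted p = 0.0415). *Mmp2*, a matrix protease, rose at 20% O2 from 160 to 320 CPM (0.99, adjusted p = 0.0233), and was called in 3 of 6 fits that each left out a library.

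Of 29 genes that respond to TGF-β in fibroblasts, 1 rose and 2 fell averaged over O2 (median −0.30), and 0 were called at either level alone, with medians of −0.43 at 20% and −0.18 at 1% O2. *Tgfbi*, a matrix protein, rose from 1.77 to 3.91 CPM (1.16, adjusted p = 0.0406). *Vcan*, which encodes versican, fell from 68.7 to 35.9 CPM (−0.97, adjusted p = 0.0476). With the replicate number as a block, *Vcan*, *Furin* and *Smad7* at 20% O2 were no longer called (adjusted p = 0.085, 0.064 and 0.0693). Between genotypes this block joins libraries of different mice. Their mean same-number correlation was −0.0978 at 20% and 0.104 at 1% O2. A genotype call kept or lost under the block therefore does not show how firm it is. With *Xist* as a covariate for sex, which was not balanced between genotypes, *Tgfbi*, *Skil*, *Vcan*, *Furin* and *Smad7* at 20% O2 were not called (adjusted p = 0.0935, 0.0587, 0.0894, 0.0715 and 0.0554). The calls of *Smad7* (averaged), *Tgfbi*, *Skil*, *Vcan* and *Furin* were also lost with libraries of the same arm and number summed. *Dcn* averaged over O2 kept its call in 11 of 11 alternatives. Among the 12 fits that each left out a library, *Dcn* and *Smad7* averaged were called in 12, *Skil* in 5, *Tgfbi* and *Furin* in 3 and *Vcan* in 2.

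For O2 averaged over arms, 4 of 25 latency and activation genes rose and 3 fell (median −0.11), where 10.5% of all genes were called. *Aspn*, whose product asporin binds TGF-β, rose from 339 to 712 CPM (log2 fold change 1.05, adjusted p = 5.21e-04), *Htra1*, a secreted protease, from 69.4 to 131 CPM (0.91, adjusted p = 0.00265), and *Nrros*, which tethers latent TGF-β1, from 0.205 to 0.494 CPM, a level of few counts (1.34, adjusted p = 0.0279). *Pcsk5*, a convertase, fell from 6.64 to 2.49 CPM (−1.44, adjusted p = 0.00132), and *Fbn1*, which encodes the fibrillin that LTBPs bind, from 606 to 329 CPM (−0.88, adjusted p = 0.034). The call of *Fbn1* was lost with the replicate block (adjusted p = 0.0811). *Pcsk5* also fell in Ctrl alone (5.19 to 1.59 CPM, adjusted p = 0.0416). Among the 18 fits that each left out a library, *Aspn*, *Htra1* and *Pcsk5* averaged were called in 18, *Nrros* in 10 and *Fbn1* in 9, and among 6 such fits *Pcsk5* in Ctrl was called in 1.

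Of the 21 pathway genes, 0 rose and 2 fell with O2 averaged over arms (median −0.14), a count near the 10.5% of all genes called. *Pmepa1*, a membrane protein that limits SMAD activation, was the 1 that fell in libraries labelled cKO alone (198 to 127 CPM, log2 fold change −0.63, adjusted p = 0.0421). Of the 29 responsive genes, 2 rose and 1 fell averaged over arms (median −0.06), which is also near that share. The 1 that fell was *Ccn2*, a matricellular protein widely used as a readout of TGF-β, from 1990 to 1200 CPM (−0.74, adjusted p = 0.00427). In Ctrl alone *Tpm1*, an actin-binding tropomyosin, fell from 1140 to 728 CPM (−0.64, adjusted p = 0.0235). *Ccn2* stayed called in 18 of 18 fits that left out a library, *Pmepa1* in 1 of 6 and *Tpm1* in 0 of 6. Among the other alternatives *Ccn2* was called in 8 of 9, all but voom weights (−0.56), *Pmepa1* in 8 of 11 and *Tpm1* in 9 of 11. No gene of the 3 lists was called for O2 with gesicles, between gesicle-treated and untreated TFs or in the interaction.

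Members that varied did so partly together. Over the 18 libraries, which share arms and depth differences, Pearson's r of log2 CPM was 0.895 between *Tgfbr1* and *Tgfbr3*, 0.847 between *Tgfbr3* and *Smad3*, 0.815 between *Tgfbr1* and *Smad3* and 0.782 between *Tgfbr2* and *Smad3*. For *Tgfb3* and *Ltbp2* it was 0.786, for *Tgfb1* and *Ltbp1* 0.734, and for *Tgfb2* and *Tgfbr2* −0.44. Library by library, replicate 1 labelled cKO at 20% O2 held the highest level of *Tgfbr1* (59.5 CPM), *Tgfbr3* (205 CPM) and *Smad3* (124 CPM), and replicate 2 of that group the lowest of *Tgfbr1* (14.6 CPM). Among all genes tested, the closest in profile to *Tgfb1* were *Socs5*, *4930558J18Rik* and *Sh2b2* (r = 0.807, 0.803 and 0.796). Closest to *Tgfb2* were *Lgalsl*, *Lmod1* and *Kif5b* (0.901, 0.897 and 0.878), and closest to *Tgfb3* were *Ldlrad3*, *Lgr4* and *Tsc22d2* (0.886, 0.86 and 0.859).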

How the data were processed

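RNA of 18 libraries of mouse tail TFs was measured by poly-A RNA-seq. The authors trimmed reads with cutadapt, mapped them to GRCm38 with STAR and deposited estimated counts per gene from RSEM 1.3.3, as whole numbers without normalization (quality control by FastQC 0.11.8 and MultiQC 1.20, per the submitters' processing notes and the methods). RSEM divides reads shared by several genes among them. Library totals are the sums of these estimated counts, and low totals widen the error of low genes.

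Groups followed the labels. Counts were filtered with filterByExpr, normalised by TMM (factors 0.962 to 1.03) and tested with edgeR 4.0.16 (quasi-likelihood test, 1 coefficient per group) in R 4.3.3. The 12 Ctrl and cKO libraries were fitted together (15850 genes), and all 18 for gesicle comparisons and the O2 average over arms (16174 genes). A gene was called at a Benjamini-Hochberg adjusted p under 0.05 over all genes tested and a fold change of at least 1.5. Length scaling used GENCODE M21 exon unions. Correlations used log2 CPM with a prior count of 2. Scripts were tested on simulated data. No 2 libraries were copies (smallest chi-square per degree of freedom 15.3).

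Same-numbered libraries deviated together (r over genes) in Ctrl across O2 (0.271, 0.3 and 0.458) and between gesicle-treated and untreated Ctrl at 20% (0.346, 0.462 and 0.405) and 1% O2 (0.262, 0.193 and 0.284), which are read as paired. The other comparisons had at least 1 correlation under 0.1. For O2 with gesicles this held although both gesicle groups were read as paired with Ctrl. By this reading, same-numbered Ctrl and gesicle libraries are not independent. The O2 average over arms counted them as separate, also with the block. The methods name a paired design in DESeq2, with Cre-negative Ctrl against cKO as the example, but no pairing factor, and here pairing was read from the data, so the fit without the block was the main one and the block and DESeq2 were alternatives. The other alternatives were DESeq2 1.42.0, limma 3.58.1 voom with quality weights, RLE size factors, no filter, CPM above 1 in at least 3 libraries, *Xist* as a covariate, GC and length offsets (splines with 4 degrees of freedom) with and without the block, other sets of libraries in the fit, summed libraries, no fold minimum, and each library left out. Genes were named by rule: each member, with single fold changes where its unadjusted p was under 0.05 there or in a parallel comparison, and from each comparison at most 6 called list genes by size. The rule that chose the members used no measured values, while the lists were chosen with earlier results of these data known.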

Additional observations from a re-analysis of the deposited data

How the results depend on the processing

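The count of members called for O2 in libraries labelled cKO rose from 0 to 1 (*Smad3*) with DESeq2, no filter, the replicate block, *Xist* as a covariate, or GC and length offsets with or without the block, and to 4 with voom weights (*Tgfb1*, *Tgfbr2*, *Smad3* and *Ltbp2*). It was 0 to 3 with each library left out (3 without replicate 2 labelled cKO at 20% O2, which were *Tgfbr1*, *Tgfbr2* and *Smad3*). Between genotypes at 20% O2 it rose from 0 to 1 (*Ltbp2*) with DESeq2, no filter, or the offsets with or without the block, and to 3 with voom weights (*Tgfb2*, *Tgfbr2* and *Ltbp2*). At 1% O2 it rose from 0 to 1 (*Ltbp2*) with DESeq2, no filter or voom weights, and at both levels it was 0 to 0 with each library left out. For O2 averaged over arms it was 2 with no fold minimum (*Smad2* and *Smad3*) and 1 to 2 with each library left out, with *Tgfbr1* added without gesicle replicate 1 or replicate 2 labelled cKO, both at 20% O2. For the genotypes averaged it was 0 with summed libraries and 1 to 2 with each library left out, with *Tgfbr1* added without replicate 1 labelled cKO at 20% O2. The cause of these changes was not tested, other than that summing leaves 6 libraries of 12 and counts same-numbered libraries of an arm once.

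The sign turned for *Tgfbr2* with O2 in Ctrl (0.013 with the replicate block, 0.16 with the offsets and 0.2 with both, and −0.22 to 0.37 with each library left out, 0.18 without Ctrl replicate 3 at 1% and 0.37 without Ctrl replicate 2 at 20% O2), and for *Smad2* with O2 in libraries labelled cKO (0.036 with the offsets and 0.038 with the block as well). *Ltbp2* averaged over O2 stayed called in 12 of 12 fits that left out a library (−1.95 to −1.54) and in 10 of 11 alternatives. The 1 that lost the call was the fit with summed libraries. All the others counted same-numbered Ctrl libraries, read as paired across O2, as separate. *Smad3* averaged over arms stayed called in 18 of 18 fits that left out a library and in 9 of 9 alternatives. Each of these counted same-numbered Ctrl and gesicle libraries as separate. For O2 in Ctrl and with gesicles, the gesicle comparisons and the interaction, 0 members were called under each alternative. Over all genes, the count for O2 in libraries labelled cKO went from 333 to 872 with DESeq2 and 2718 with voom weights, from 55 to 417 and 1585 for the genotypes at 20% O2, and from 6 to 263 and 1274 at 1% O2. With summed libraries 25 genes were called between genotypes, against 599. The replicate block changed no other member's call.

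Depth did not limit the detection of any member. With 3 libraries per group, the SE of a log2 fold change between genotypes at 20% O2 was lowest for *Smad2* (0.11) and highest for *Tgfbr3* (0.44).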
